A study of Mus musculus with 8 samples.

Results

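Interferon-stimulated genes are the genes that a cell switches on when interferon binds its receptors, and 45 of them were followed here in regulatory T (Treg) cells with and without Ripk1. They were taken by gene symbol from a list of known members of the response, out of 42748 genes in the deposited count table. Of the 45, 41 had enough counts to be tested, Gbp3 and Gbp7 had 0 counts in all 8 libraries, Gbp4 stayed below the filter on low counts, and Gbp5 has no row and was not analysed here. Bulk RNA-seq was performed on CD4+ CD25+ cells sorted by YFP of female Ripk1 fl/fl Foxp3 Cre-YFP/wt mice, with spleen and lymph node cells combined. These mice carry YFP and Cre on 1 X-linked Foxp3 allele, so that X inactivation gives them both kinds of Treg cells. The 4 YFP+ libraries (genotype label Ripk1 -/-, Ripk1-deficient) and the 4 YFP- libraries (label Ripk1+/+, Ripk1-expressing) carry the numbers 21, 46, 48 and 53. Both fractions come from floxed mice, and the YFP+ cells also differ from the YFP- cells by expressing the YFP/Cre knock-in, so that loss of Ripk1 and the knock-in cannot be told apart. No source used here gives the age of the mice or says whether libraries of a fraction came from separate mice. The p-values therefore measure only the spread between these libraries.

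Total counts were 29719251 to 55371610 in YFP+ and 43737313 to 70782679 in YFP- libraries, so that 3 counts amounted to 0.0577 to 0.142 CPM (counts divided by library size, with TMM factors) in YFP+ libraries, and between 0.0374 and 0.0620 CPM in YFP- libraries, for counting error only. YFP+ library 21 stood apart, with 9571 genes of at least 10 counts against 13047 or more in the others, and a TMM factor of 0.710. Ripk1 itself, counted over its whole length, measured 15.2, 28.7, 19.9 and 26.1 CPM in YFP+ libraries 21, 46, 48 and 53, against 20.5, 44.3, 29.5 and 23.2 CPM in the YFP- libraries of the same numbers. The fractions overlapped (edgeR adjusted p = 0.713), and a whole-gene count does not show whether the floxed part is missing. Of the 7 markers fixed for Treg and CD4 T cells, Foxp3 is listed at 0 in every library, where 0% of its exons are free of other annotated genes, and the list summed to 3006-4298 CPM in YFP+ libraries, against 3673-3996 CPM in YFP- libraries. Of the 6 markers tested, 1 was called, Ctla4, an inhibitory receptor of Treg cells. It measured 193, 146, 121 and 188 CPM in YFP+ libraries, against 423, 373, 349.7 and 408 CPM in YFP- libraries, and was lower with a log2 fold change of -1.26 (standard error 0.20, edgeR adjusted p = 0.037). Summed markers of B cells, MHC class II and macrophages were higher in every YFP+ library than in any YFP- library. The sums of erythroid, dendritic cell, neutrophil, CD8 T and NK cell, and stroma markers overlapped between the fractions. None of the tested genes on these lists was called in edgeR. The 10 B cell genes reached 178 to 2837 CPM in YFP+ libraries, against 116 to 148 CPM in YFP- libraries (Ms4a1 at 0), the 5 MHC class II genes 913 to 16045 CPM in YFP+ against 484 to 772 CPM in YFP- libraries, the 8 macrophage genes 40.1 to 471 against 11.9 to 17.1 CPM, and the 6 erythroid genes 292 to 5063 against 92.2 to 357 CPM (Alas2 at 0), with YFP+ library 48 highest each time. Their part in the results below was not tested, nor can fewer cells of a type be told apart from less RNA per cell in bulk samples.

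As background, type I interferons act through the receptor chains Ifnar1 and Ifnar2 and the kinases Jak1 and Tyk2 on a complex that includes Stat2 and Irf9, which binds the interferon-stimulated response element (ISRE) in promoters. Interferon gamma acts through Ifngr1 and Ifngr2, and its response runs through promoters with the gamma-activated sequence (GAS). The induced proteins detect foreign nucleic acids, block virus replication or feed back on the pathway, and part of the set is expressed at a basal level in resting lymphocytes.

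The promoters of 4 genes are printed, since these genes lay on opposite sides in the comparison below: Isg15, Ifit1 and Irgm1 measured higher in every YFP+ library than in any YFP- library, and Gbp2 lower. Each line gives the 250 bases before the start annotated in RefSeq (build GRCm38.p6), 5′ to 3′ on the strand of the gene, with matches to the ISRE core on either strand in capitals. This core is GAAA followed by 2 bases of any kind and GAAA again. The 4 windows lie, in the order printed, at chr4:156200819-156201068, minus strand, at chr19:34640639-34640888, plus strand, at chr11:48871421-48871670, minus strand, and at chr3:142620413-142620662, plus strand.
Isg15: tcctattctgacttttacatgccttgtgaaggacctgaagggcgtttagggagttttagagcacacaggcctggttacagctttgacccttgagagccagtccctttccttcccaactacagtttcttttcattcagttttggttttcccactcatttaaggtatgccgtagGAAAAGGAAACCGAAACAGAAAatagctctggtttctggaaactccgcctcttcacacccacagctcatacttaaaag
Ifit1: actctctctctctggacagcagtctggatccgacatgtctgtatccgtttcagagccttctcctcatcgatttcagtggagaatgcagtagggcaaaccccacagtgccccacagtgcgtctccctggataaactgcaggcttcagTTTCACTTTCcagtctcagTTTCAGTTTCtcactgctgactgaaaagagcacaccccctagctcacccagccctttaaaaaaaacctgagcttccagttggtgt
Irgm1: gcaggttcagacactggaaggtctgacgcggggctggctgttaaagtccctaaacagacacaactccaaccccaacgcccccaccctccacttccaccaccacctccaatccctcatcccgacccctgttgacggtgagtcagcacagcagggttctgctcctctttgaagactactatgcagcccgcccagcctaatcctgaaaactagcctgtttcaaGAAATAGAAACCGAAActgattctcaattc
Gbp2: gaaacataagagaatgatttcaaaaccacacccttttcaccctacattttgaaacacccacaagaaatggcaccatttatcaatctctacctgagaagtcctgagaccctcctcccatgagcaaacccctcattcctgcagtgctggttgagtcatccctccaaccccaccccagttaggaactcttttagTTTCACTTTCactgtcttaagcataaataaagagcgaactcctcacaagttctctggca
Isg15 held 3 overlapping matches between 78 and 57 bases before its start, Irgm1 held 2 overlapping matches between 30 and 15 bases before it, Ifit1 held 2 separate matches on the opposite strand, and Gbp2 held 1, also on the opposite strand. None of these 4 windows held the GAS letters TTCNNNGAA. Of the 45 genes, 31 have an entry in the RefSeq promoter table, and 16 of them (51.6%) held an ISRE core, against 3.46% of all 27025 genes of the table. The GAS letters occurred in 11 of the 31 (35.5%), against 8.13% of all genes. Of the 9 genes that separate the fractions below, 6 have an entry. Besides the 4 printed, these are Ifit2, which measured higher, and Samhd1, which measured lower. Neither held an ISRE core in its windows, and each held a GAS match. A match describes sequence and not binding.

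**Figure D1:**
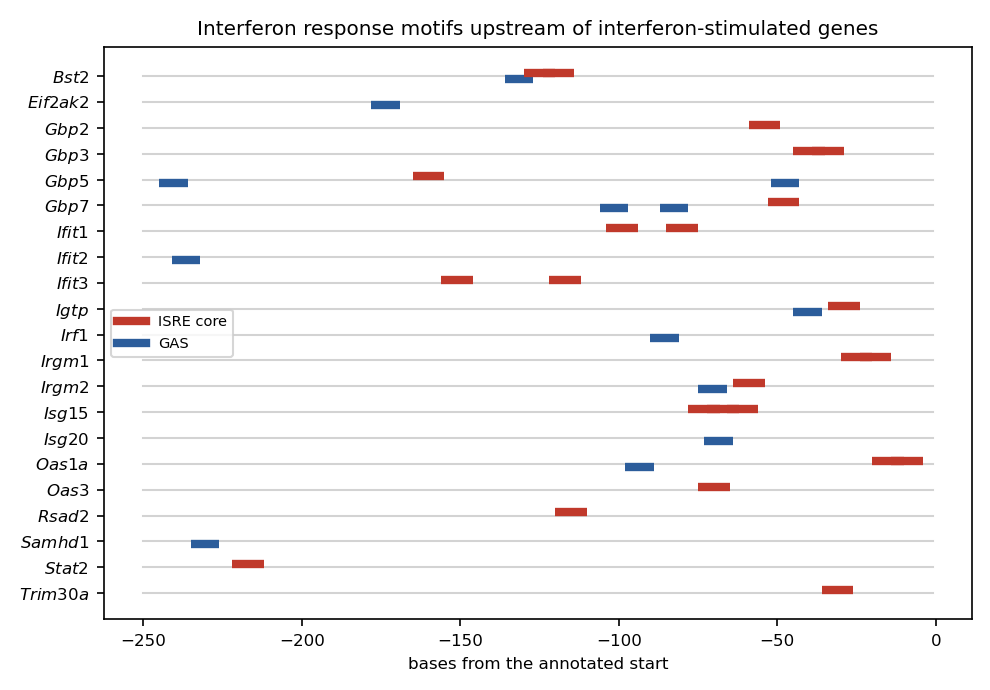
Positions of ISRE core (GAAA, 2 bases of any kind, GAAA, red) and GAS (TTCNNNGAA, blue) matches on either strand in the 250 bases before the annotated start of each interferon-stimulated gene with a match (x axis in bases from the start, 1 row per gene). Matches to the ISRE core occur in 16 of the 31 genes with an entry, in several of them within 100 bases of the start.

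The comparison of YFP+ with YFP- libraries asked whether the interferon response as a whole, or single members of it, differed between the fractions. Both fractions come from mice that hold both kinds of Treg cells, and they differ in the YFP/Cre knock-in as well as in Ripk1. The set showed no common direction. Of the 41 tested, 20 had a positive log2 fold change (YFP+ over YFP-) and 21 a negative one, which is 48.8% positive against 49.1% of all genes. Their log2 fold changes ran from -2.59 to 1.53 with a median of -0.00, against -0.02 over all 15063 genes tested. None of the 41 passed an adjusted p of 0.05 in edgeR, where 0.0332% of all genes passed as higher and 0.836% as lower. At an unadjusted p under 0.05, 4 were higher (Ifit1, Ifit2, Isg15 and Rtp4) against 7.21% of all genes, and 1 was lower (Samhd1) against 5.35%. DESeq2 also called 0, where it called 3.41% of all genes higher and 3.86% lower. The lowest adjusted p among the genes was 0.261 in edgeR and 0.055 in DESeq2, which gave no adjusted p for Stat2 and Isg20.

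**Figure D2:**
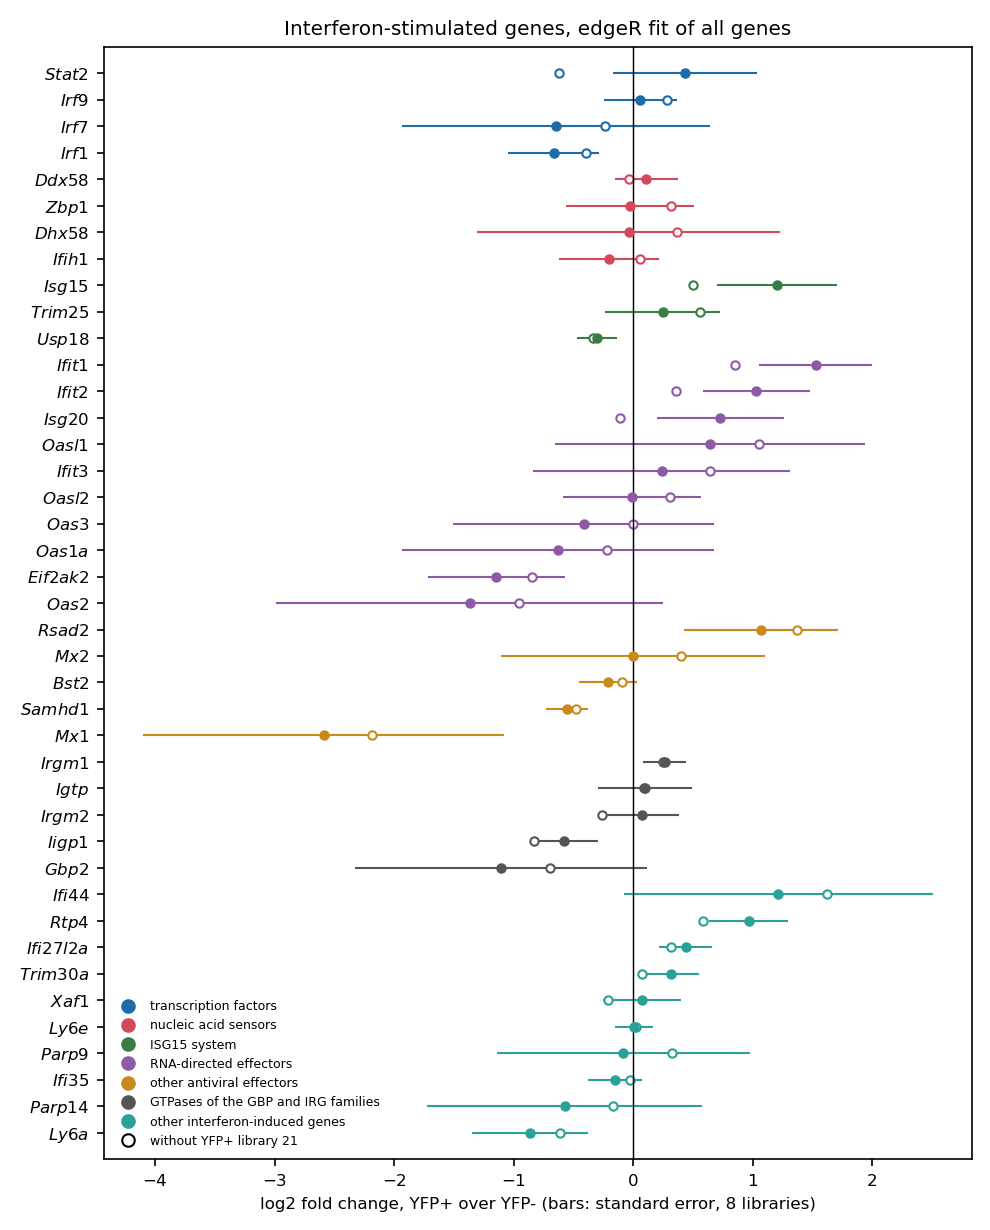
Log2 fold change, YFP+ over YFP- (x axis), of the 41 tested genes, grouped by role, from the edgeR fit of all genes. Filled points with bars are the estimate and its standard error over 8 libraries, and open points are the estimate without YFP+ library 21. The estimates lie on both sides of 0 in every role group, between -2.59 and 1.53.

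The summed level of the 41 genes was 5889, 5276, 5663 and 6338 CPM in YFP+ libraries 21, 46, 48 and 53, against 5996, 5455, 6139.9 and 6418 CPM in the YFP- libraries of the same numbers. The sums overlapped. Single genes nevertheless separated the fractions. In 5 genes every YFP+ library lay above every YFP- library (Ifit1, Ifit2, Isg15, Rtp4 and Irgm1), which is 12.2% of the 41 against 7.83% of all genes. In 4 genes every YFP+ library lay below every YFP- library (Mx1, Gbp2, Samhd1 and Usp18), which is 9.76% against 10.6% of all genes. Both shares are near those of all genes. Without YFP+ library 21 the counts were 7 higher (13.0% of all genes) and 6 lower (13.7%), and without YFP+ library 53 they were 5 higher (10.1%) and 8 lower (14.9%).

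**Figure D3:**
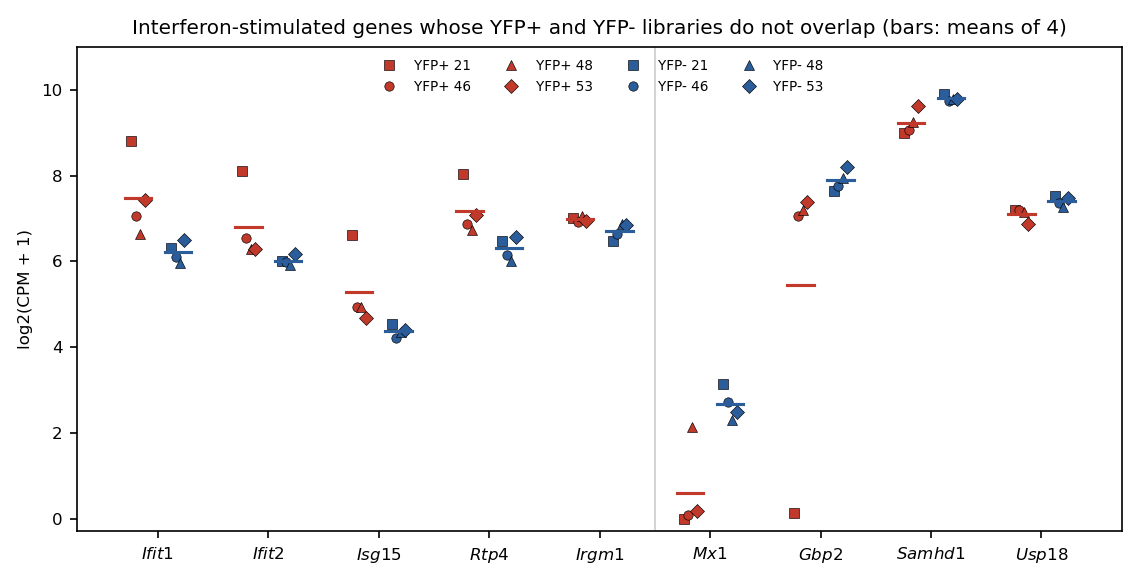
Level of the 9 genes whose libraries do not overlap between fractions, as log2(CPM + 1), with YFP+ libraries in red and YFP- libraries in blue, marker shape for the library number and a bar for the mean of 4. YFP+ library 21 is highest for Ifit1, Ifit2, Isg15 and Rtp4 and lies near 0 for Gbp2 and Mx1.

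Ifit1, an RNA-binding protein that blocks translation of foreign RNA, had the largest positive log2 fold change of the 41. It measured 450.1, 132, 99.3 and 170.4 CPM in YFP+ libraries 21, 46, 48 and 53, against 78.3, 67.7, 61.0 and 88.9 CPM in the YFP- libraries. All 4 YFP+ libraries were above the YFP- range, library 21 by the widest margin. The log2 fold change was 1.53 (standard error 0.47, edgeR adjusted p = 0.261). Without YFP+ library 21 it was 0.85 (edgeR adjusted p = 0.057), and it passed the threshold only without both YFP+ libraries 21 and 48, at 1.02 (edgeR adjusted p = 0.037). Its neighbour Ifit2, of the same family on chromosome 19, measured 276, 92.2, 77.5 and 76.9 CPM in YFP+ libraries and 63.1, 62.6, 59.3 and 70.8 CPM in YFP- libraries. Outside library 21 the YFP+ values lay only just above the YFP- range, and the log2 fold change of 1.03 (standard error 0.45) was 0.36 without that library. Ifit3, the third member of the family, went the other way in library 21, with 0.284, 75.0, 93.0 and 50.0 CPM in YFP+ libraries and 46.5, 42.5, 45.4 and 50.8 CPM in YFP- libraries. Ifit3 has the near-identical copy Ifit3b, and reads of the pair may have been split or dropped in counting. Ifit3b measured 0.237, 37.6, 50.6 and 17.99 CPM in YFP+ libraries, against 24.5, 21.1, 21.3 and 25.1 CPM in YFP- libraries. Like Ifit3, it was lowest in YFP+ library 21. The part of such counting in the low values of that library was not tested.

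The other RNA-directed effectors lay on both sides. Eif2ak2, the kinase PKR that stops translation when it binds double-stranded RNA, measured 5.07, 16.1, 36.2 and 12.5 CPM in YFP+ libraries, against 34.8, 39.3, 47.1 and 33.3 CPM in YFP- libraries. Only YFP+ library 48 reached the YFP- range (log2 fold change -1.14, standard error 0.57, edgeR adjusted p = 0.443), and without YFP+ libraries 21 and 48 the gene passed as lower, at -1.44 (edgeR adjusted p = 0.028). Isg20, an exonuclease that degrades single-stranded RNA, measured 180.2, 41.4, 47.2 and 41.6 CPM in YFP+ and 53.8, 40.6, 38.9 and 53.9 CPM in YFP- libraries. Its log2 fold change of 0.73 rested on library 21, and was -0.11 without it. The oligoadenylate synthetases Oas1a, Oas2 and Oas3, which activate the RNA-degrading enzyme RNase L, and their relatives Oasl1 and Oasl2 had log2 fold changes of -1.37 to 0.64 with standard errors of 0.58 to 1.62. Oas2, the lowest of them, measured 0, 4.19, 3.46 and 0 CPM in YFP+ libraries, against 7.83, 3.66, 4.84 and 3.47 CPM in YFP- libraries. Oasl1 was at 0 in YFP+ library 21 and at 29.9, 13.7 and 18.6 CPM in the other YFP+ libraries, against 8.59, 8.94, 7.32 and 15.0 CPM in YFP- libraries. The 10 RNA-directed effectors together summed to 916, 453, 464 and 459.7 CPM in YFP+ libraries, against 358, 328, 378 and 411 CPM in YFP- libraries, without overlap, and Ifit1 and Ifit2 made up most of the sum in library 21. Of the 10, 5 had a positive and 5 a negative log2 fold change.

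**Figure D4:**
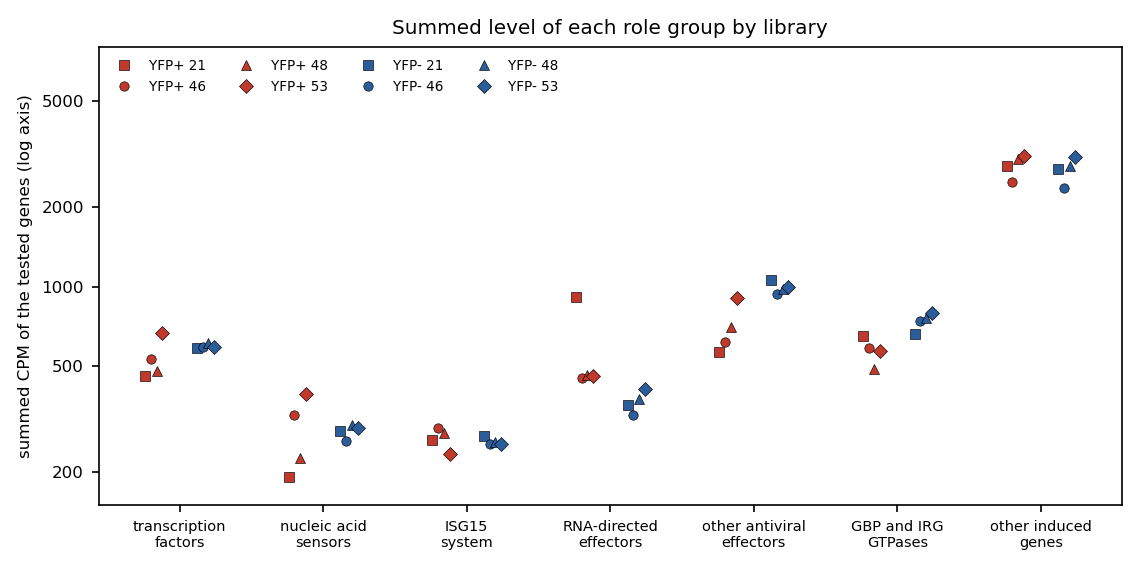
Summed CPM (y axis, log scale) of the tested genes in each of 7 role groups, for the 4 YFP+ libraries (red) and the 4 YFP- libraries (blue), with marker shape for the library number. The RNA-directed effectors lie higher in YFP+ libraries (453 to 916 against 328 to 411 CPM), and the other antiviral effectors and the GBP and IRG GTPases lie lower.

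The ISG15 system attaches a ubiquitin-like protein to other proteins. Isg15, the modifier itself, measured 97.5, 29.8, 29.5 and 24.8 CPM in YFP+ libraries, against 22.1, 17.4, 19.3 and 20.0 CPM in YFP- libraries. Every YFP+ library was above the YFP- range, and 3 of them by a small margin (log2 fold change 1.20, standard error 0.50, edgeR adjusted p = 0.383). Leaving out YFP+ library 21 gave 0.50 (edgeR adjusted p = 0.115). Usp18, the protease that removes Isg15 and also dampens signalling at Ifnar2, lay on the other side, with 146, 146, 140.2 and 116 CPM in YFP+ libraries and 183, 163, 154 and 176 CPM in YFP- libraries (-0.30 in log2, standard error 0.17). Here YFP+ library 21 did not stand apart, but only 18.2% of the exon length of Usp18 lies outside the span of other annotated genes, introns included. No source used here says how reads inside such a span were counted. Trim25, a ubiquitin ligase that also acts as an Isg15 ligase, measured 21.3, 116, 112 and 92.4 CPM in YFP+ libraries, against 67.3, 75.6, 86.8 and 57.8 CPM in YFP- libraries. It lay above the YFP- range in 3 YFP+ libraries and below it in library 21.

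Among the other antiviral effectors, Samhd1, which depletes deoxynucleotides, was the most abundant and had the smallest error. It measured 508, 533, 604 and 794 CPM in YFP+ libraries (609.8 ± 129, SD, n = 4), against 959.5, 849, 877 and 888 CPM in YFP- libraries (893 ± 47.0, SD, n = 4). No YFP+ library reached the YFP- range, and the log2 fold change of -0.55 (standard error 0.18) missed the threshold over 8 libraries (edgeR adjusted p = 0.273) and without YFP+ library 21 (-0.48, edgeR adjusted p = 0.090). Mx1, a dynamin-like GTPase, was close to the limit of detection in 3 YFP+ libraries. It measured 0, 0.0668, 3.42 and 0.138 CPM in YFP+ libraries, against 7.88, 5.62, 3.91 and 4.64 CPM in YFP- libraries. This was the largest difference of the set (log2 fold change -2.59, standard error 1.51, edgeR adjusted p = 0.494). YFP+ library 48, with the highest sums of macrophage and B cell markers, was the only YFP+ library with more than 1 CPM of Mx1, and the part of those cells in this value was not tested. Without it the gene passed as lower (edgeR adjusted p = 0.047, where 1.49% of all genes were lower). Its neighbour Mx2 measured 0.0474, 5.74, 2.21 and 11.4 CPM in YFP+ and 4.97, 3.06, 5.13 and 6.33 CPM in YFP- libraries, with overlap.

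Rsad2, viperin, which makes a chain-terminating nucleotide, measured 3.41, 16.0, 18.2 and 9.63 CPM in YFP+ libraries, against 3.43, 5.04, 9.94 and 4.06 CPM in YFP- libraries. The fractions overlapped through YFP+ libraries 21 and 53 and YFP- library 48 (log2 fold change 1.07, standard error 0.64, edgeR adjusted p = 0.506). Bst2, tetherin, which holds budding virus at the membrane and is also a marker of plasmacytoid dendritic cells, measured 53.3, 63.6, 77.7 and 93.2 CPM in YFP+ and 84.2, 71.5, 85.1 and 91.3 CPM in YFP- libraries. These values overlapped too (log2 fold change -0.21, standard error 0.24).

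The guanylate-binding proteins (GBP) and immunity-related GTPases (IRG), which attack the vacuoles of intracellular pathogens and respond strongly to interferon gamma, showed no common direction. Of the 5 tested, 3 had a positive log2 fold change and 2 a negative one, with a median of 0.07. Igtp is among the 3 and counts in the median, although its level cannot be read from these counts, as given below. They summed to 650.2, 584, 489 and 572 CPM in YFP+ libraries, against 660.3, 740.1, 758 and 796 CPM in YFP- libraries, without overlap, and the members with the negative values, Gbp2 and Iigp1, carried this difference. Gbp2 measured 0.0948, 133, 146 and 166 CPM in YFP+ libraries, against 199.8, 217, 246 and 293 CPM in YFP- libraries. All YFP+ libraries lay below the YFP- range, and library 21 held only 2 counts. With that library in the fit the standard error was 1.22 and the log2 fold change of -1.10 did not pass (edgeR adjusted p = 0.738). Without it Gbp2 fell by 0.70 on the log2 scale (edgeR adjusted p = 0.046, where 3.97% of all genes were lower), and without library 48 as well it missed the threshold (edgeR adjusted p = 0.096). Iigp1 measured 202, 158, 99.5 and 91.9 CPM in YFP+ and 188, 219, 229 and 187 CPM in YFP- libraries, and lay below the YFP- range in all but library 21 (log2 fold change -0.58, standard error 0.28).

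The regulatory GTPases overlapped or lay higher. Irgm1, which keeps effector IRG proteins inactive on the membranes of the host cell, measured 127, 119, 132 and 122 CPM in YFP+ libraries, against 88.2, 98.2, 116 and 115 CPM in YFP- libraries. The fractions did not overlap, but the margin was small and the log2 fold change was 0.26 (standard error 0.18, edgeR adjusted p = 0.554). Irgm2 measured 321, 173, 112 and 191 CPM in YFP+ and 184, 205, 168 and 202 CPM in YFP- libraries, with overlap. Igtp (Irgm3), whose exons lie almost wholly inside Irgm2 in the annotation (3.07% free), lay between 0.539 and 0.802 CPM in YFP+ libraries, and between 0.462 and 0.808 CPM in YFP- libraries, so that its level cannot be read from these counts. The same holds for Gbp4, with 0.614% of its exon length free of Gbp8 and Gbp9 and at most 4 counts in any library. Gbp3 and Gbp7 are listed at 0, although 100% and 88.7% of their exon length is free.

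Of the 4 transcription factors, Irf1, which carries much of the interferon gamma response, measured 48.8, 138, 137 and 202 CPM in YFP+ libraries, against 183, 209.6, 226 and 214 CPM in YFP- libraries. The fractions overlapped only through YFP+ library 53 (log2 fold change -0.66, standard error 0.38, edgeR adjusted p = 0.489, exact permutation p = 0.0571). Irf9, the DNA-binding subunit of the type I interferon complex, measured 118, 299, 225 and 332 CPM in YFP+ and 223, 221, 250.3 and 240.2 CPM in YFP- libraries, with library 21 below and 2 libraries above the YFP- range. Its partner Stat2 showed the reverse, with 294, 48.7, 60.6 and 57.4 CPM in YFP+ and 95.9, 96.8, 77.5 and 70.4 CPM in YFP- libraries. The log2 fold change of Stat2 was 0.43 over 8 libraries and -0.62 (edgeR adjusted p = 0.068) without YFP+ library 21, where all 3 remaining YFP+ libraries lay below the YFP- range. Irf7, which amplifies type I interferon genes, was at 0 in YFP+ library 21 and at 47.0, 56.5 and 75.8 CPM in the others, against 86.2, 64.2, 60.7 and 69.2 CPM in YFP- libraries.

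The 4 sensors of foreign nucleic acids overlapped between the fractions. Ddx58 (RIG-I), which detects viral RNA ends, measured 154, 102, 74.9 and 152 CPM in YFP+ libraries, against 110.3, 103, 119 and 116 CPM in YFP- libraries (0.11 in log2, standard error 0.26). Zbp1, a sensor of left-handed nucleic acids that activates the kinase Ripk3 and so belongs to the same cell death pathway as Ripk1, measured 19.3, 155, 91.0 and 142 CPM in YFP+ and 104, 91.0, 106 and 113 CPM in YFP- libraries. YFP+ libraries 46 and 53 were above the YFP- range and library 21 below it, and the log2 fold change was -0.02 (standard error 0.54), or 0.31 without YFP+ library 21 (edgeR adjusted p = 0.349). Ifih1 (MDA5) and Dhx58 (LGP2) had log2 fold changes of -0.20 and -0.04.

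The remaining induced genes held the most abundant members. Per kilobase of exon, Ly6e and Ifi27l2a had the highest mean level of the 41 in YFP- libraries, at 486 and 465 CPM per kb. Igtp and Ifi44 had the lowest values there, at 0.324 and 0.824 CPM per kb. As said above, the level of Igtp cannot be read from these counts. Ly6e, a membrane protein that limits coronavirus entry, measured 1766, 1547, 2039 and 2055 CPM in YFP+ and 1869, 1536, 1920.0 and 2035 CPM in YFP- libraries. With the smallest standard error of the set it differed by 0.01 in log2 (standard error 0.16). Ifi27l2a measured 360.3, 258, 249 and 299 CPM in YFP+ and 212, 153, 231 and 266 CPM in YFP- libraries (0.44 in log2, standard error 0.22, edgeR adjusted p = 0.451), and the fractions overlapped.

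Rtp4, a chaperone of receptors that also restrains interferon responses in mice, measured 262, 116, 105 and 134 CPM in YFP+ libraries, against 88.1, 70.4, 63.2 and 94.3 CPM in YFP- libraries. All YFP+ libraries were above the YFP- range (log2 fold change 0.97, standard error 0.33, edgeR adjusted p = 0.307). The log2 fold change was 0.58 without YFP+ library 21 (edgeR adjusted p = 0.087). Ifi44 was at 0 in YFP+ library 21 and at 18.9, 12.7 and 15.3 CPM in YFP+ libraries 46, 48 and 53, against 3.18, 4.63, 6.37 and 6.04 CPM in YFP- libraries. Without library 21 it was the only one of the 41 to pass as higher, with a log2 fold change of 1.62 (edgeR adjusted p = 0.037, where 2.68% of all genes were higher). Ly6a (Sca-1), a surface protein of activated T cells, measured 30.6, 62.2, 148 and 43.5 CPM in YFP+ and 115, 97.6, 152 and 153 CPM in YFP- libraries, where only YFP+ library 48 reached the YFP- range. Trim30a, Xaf1, Ifi35, Parp9 and Parp14 had log2 fold changes of -0.57 to 0.32, and their fractions overlapped.

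The libraries of a fraction varied to very different degrees. Over YFP- libraries the median coefficient of variation of the 41 genes was 14.4%, against 19.8% of all genes, and over YFP+ libraries 46, 48 and 53 it was 21.2%, against 32.4%. With YFP+ library 21 included the YFP+ figure was 61.0%, against 70.2%. In that library 14 of the 41 genes were below 1 CPM and 7 had 0 counts (Irf7, Dhx58, Oas1a, Oas2, Oasl1, Mx1 and Ifi44). Of the 34 genes with a YFP- mean of at least 10 CPM, 8 were below 1 CPM there (23.5%, against 28.6% of all such genes). Another 6 were more than 2-fold above their YFP- mean (Ifit1, Ifit2, Isg15, Isg20, Rtp4 and Stat2), which is 17.6% against 24.8% of all such genes. Both kinds of deviation were at least as frequent among all genes as among the interferon-stimulated genes. More than 2-fold below their YFP- mean in library 21 were 15 of the 34 (44.1%, against 44.1% of all such genes), the 8 included. More than 2-fold above their YFP- mean were 0 of the 34 in YFP+ library 46 (1.69% of all such genes), 1 in library 48 (Ifit3, 1.83%) and 1 in library 53 (Ifit1, 3.18%).

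**Figure D5:**
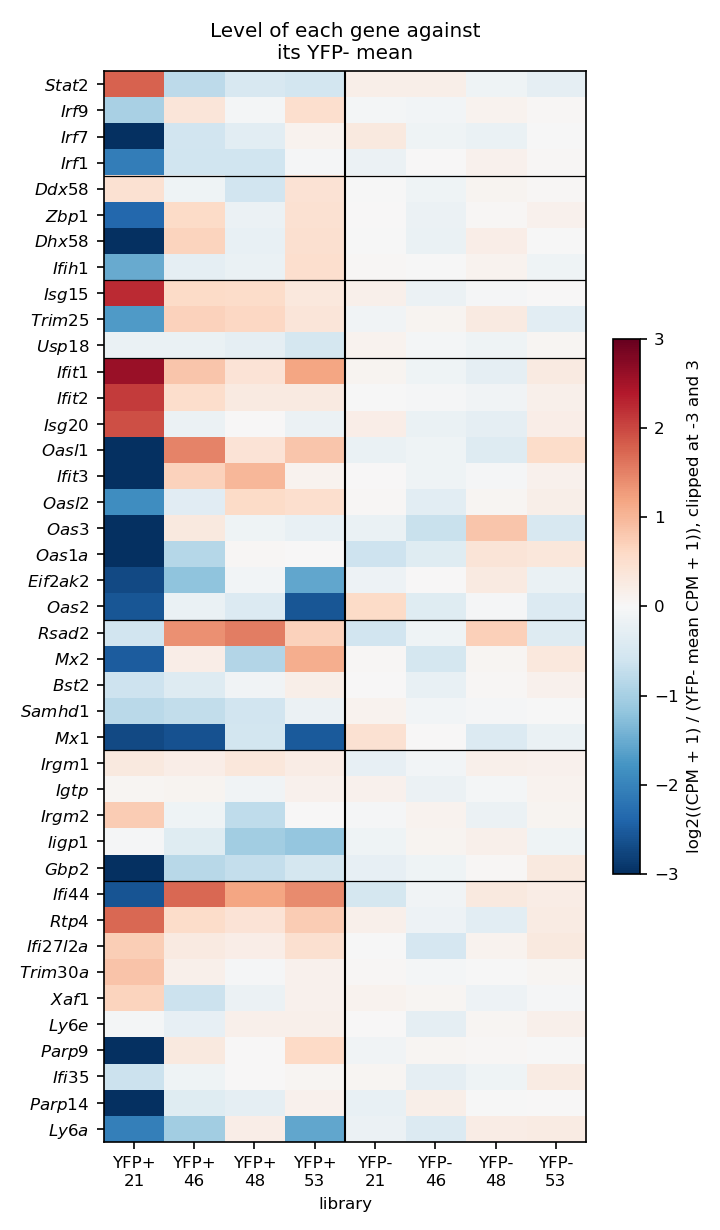
Level of each of the 41 tested genes in each library (columns, YFP+ left and YFP- right) as log2 of (CPM + 1) over (YFP- mean CPM + 1), clipped at -3 and 3, with lines between role groups. YFP+ library 21 holds the deepest red (Ifit1, Isg15, Ifit2) and 9 genes at or past the lower limit of -3, Gbp2, Irf7 and Parp14 among them, and no gene reaches either limit in another library.

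The precision of the comparison differed between genes, with standard errors from 0.16 to 1.62 on the log2 scale. All 13 genes with a standard error over 1 were among those below 1 CPM in YFP+ library 21. The part of that library in these errors, against that of other libraries, was not tested. The 14 genes with a standard error under 0.35 had log2 fold changes between -0.58 and 0.97. Without YFP+ library 21, 1 gene was called higher (Ifi44) and 1 lower (Gbp2). Without YFP+ libraries 21 and 48 the calls were 2 higher (Ifi44 and Ifit1, where 1.43% of all genes were higher) and 3 lower (Eif2ak2, Ly6a and Mx1, where 4.28% were lower). Both settings were chosen after the values of these libraries had been seen.

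The pathway around the genes was described from 6 lists of 105 genes, of which 70 were tested and none passed in edgeR over 8 libraries, where DESeq2 called 1 (Ms4a4c, higher, adjusted p = 0.045). Of 21 interferon genes, 18 had 0 counts in every library, Ifnb1 among them. Ifng, the gene of interferon gamma, measured 0, 1.14, 2.19 and 0 CPM in YFP+ libraries, against 4.53, 4.28, 3.62 and 3.22 CPM in YFP- libraries. Every YFP+ library was below the YFP- range (log2 fold change -2.22, standard error 1.52, edgeR adjusted p = 0.560). Of its receptor, the ligand-binding chain Ifngr1 measured 26.3, 274, 274 and 252 CPM in YFP+ and 377, 395, 380.0 and 568 CPM in YFP- libraries, also without overlap (log2 fold change -1.06). It was -0.70 without YFP+ library 21 (edgeR adjusted p = 0.053). The second chain Ifngr2 measured 56.6, 120.1, 94.7 and 173 CPM in YFP+ libraries and 89.0, 74.6, 68.2 and 78.8 CPM in YFP- libraries, higher in 3 YFP+ libraries and lower in library 21.

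Ifnar1, of the type I receptor, measured 92.1, 225, 222 and 208 CPM in YFP+ libraries, against 244, 232, 229.8 and 295 CPM in YFP- libraries, without overlap but with a log2 fold change of only -0.20 without YFP+ library 21. Ifnar2, with only 26.4% of its exon length free of other annotated genes, measured 0.284, 61.8, 47.2 and 55.5 CPM in YFP+ libraries. It measured 50.2, 57.9, 52.9 and 50.5 CPM in YFP- libraries. Tyk2 had 0 counts in all libraries, with 5.68% of its exon length free. Jak1 differed by 0.15 in log2 (standard error 0.13). Socs1, the inhibitor that interferon gamma induces, measured 0.142, 131, 109 and 166 CPM in YFP+ libraries, against 224, 203, 183 and 207 CPM in YFP- libraries. Every YFP+ library lay below the YFP- range (log2 fold change -1.01, standard error 1.19). It was -0.60 without YFP+ library 21 (edgeR adjusted p = 0.066).

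Of 49 further interferon-induced genes, 41 were tested, and 27 had a positive log2 fold change, where 49.1% of all genes had one. Without YFP+ library 21, 3 of them passed as higher (Ifit1bl1, Slfn2 and Ms4a4c, where 2.68% of all genes were higher) and 2 as lower (Gbp8 and Mndal, where 3.97% were lower). Ifit1bl1, of the Ifit family, measured 643, 342, 285 and 321 CPM in YFP+ libraries, against 246, 189, 204 and 233 CPM in YFP- libraries, higher in every YFP+ library as in Ifit1 and Ifit2. Gbp8, of the GBP family, measured 359, 133, 113 and 121 CPM in YFP+ libraries, against 213, 185, 189.8 and 227 CPM in YFP- libraries. Outside YFP+ library 21 it lay below the YFP- range, as Gbp2 did. Ms4a4c, a membrane protein, measured 496, 215, 267 and 227 CPM in YFP+ libraries, against 173, 131, 129 and 147 CPM in YFP- libraries, without overlap. Slfn2, of the Schlafen family, measured 65.9, 714, 486 and 690.3 CPM in YFP+ libraries, against 409, 364, 341 and 434 CPM in YFP- libraries, lowest in library 21 and above the YFP- range in the other 3. Only 13.9% of its exon length is free of other annotated genes. Mndal, of a family of interferon-inducible nuclear proteins, measured 691, 271, 212 and 189 CPM in YFP+ libraries, against 468, 405, 369 and 391 CPM in YFP- libraries, highest in library 21 and below the YFP- range in the other 3. Of the sensors upstream of interferon, Tlr7, a receptor for single-stranded RNA that B cells and plasmacytoid dendritic cells also express, passed as higher without YFP+ library 21 (edgeR adjusted p = 0.037). It measured 0.758, 72.4, 56.5 and 71.4 CPM in YFP+ libraries and 34.2, 34.9, 32.9 and 19.5 CPM in YFP- libraries, and the part of the B cell markers in this was not tested.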

How the data were processed

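The authors deposited raw counts per Ensembl gene in 1 table, with 1 column per library and no column without a sample. The submitters' processing notes name Trim Galore, STAR and mm10. No source used here gives their versions, the tool that counted reads, or its strandedness. Libraries were made from total RNA with a low-input kit, and columns were assigned by names equal to the titles.

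All 15063 genes that passed filterByExpr (minimum count 10, minimum total 15) were fitted in R 4.3.3 with edgeR 4.0.16 (TMM, glmQLFit and glmQLFTest, fraction as the sole factor). Adjustment was by Benjamini-Hochberg, at 0.05. Standard errors were obtained by dividing the size of the log2 fold change by the square root of F. CPM use TMM-scaled library sizes. Exact permutation tests (scipy 1.17.1) used log2(CPM + 1) and were two-sided. Alternatives were RLE factors, dropping the filter, a filter of 5 CPM in 4 libraries, DESeq2 1.42.0, the library number as a block, and libraries or numbers left out. The edgeR script was tested on simulated data. Whether equal numbers pair libraries was checked by correlating deviations from the fraction means.

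The genes and lists were chosen with earlier results of these data known. Values per library are given for genes called with or without YFP+ library 21, the 2 with the highest mean CPM in each role group, the 3 largest log2 fold changes per direction with a mean of at least 1 CPM, and fixed pathway genes. Other genes were added after their values were seen. A result for 1 pathway gene is not reported here. Coordinates and exon lengths are from GENCODE M21 (GRCm38), and promoters from RefSeq (GRCm38.p6). Exon length was called free where it lay outside the whole span of every other annotated gene, introns included, on either strand. Exon length that is not free therefore need not be shared with exons of another gene.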

Additional observations from a re-analysis of the deposited data

Results flagged for a closer look

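Of 72 groups of 4 libraries (35 named genes and the summed level of the 41, in each fraction, as log2(CPM + 1)), 15 had 1 library whose gap to its nearest neighbour, as a share of the range of the group, exceeded Dixon's 95% critical value for 4 values. Chance would give 1 in 20 groups, or 3.6, if the groups were independent and fixed beforehand. Some of these genes were added after their values were seen, and all groups of a fraction share the same libraries. The 15 can therefore not be compared with 3.6. In 13 of the 15 the library was YFP+ library 21. It was the highest for Isg20 (0.912), Stat2 (0.879), Isg15 (0.867) and Ifit2 (0.859). It was the lowest for Ifngr1 (0.963), Gbp2 (0.956), Ifnar2 (0.932), Socs1 (0.917), Ifnar1 (0.913), Irf7 (0.892), Ifi44 (0.874), Trim25 (0.865) and Ifit3 (0.858). YFP+ library 48 was the highest for Mx1 (0.913), and YFP- library 53 the highest for Ifngr1 (0.887).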

How the results depend on the processing

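Of 662 log2 fold changes of 35 named genes under 19 alternatives, 607 kept their direction and their side of the threshold, 46 values of 9 genes changed sign, and 9 newly passed. Leaving out single libraries gave 0 to 1 interferon-stimulated genes higher and 0 to 1 lower, 0 to 4 and 0 to 2 other pathway genes, and 5 to 7 higher and 4 to 8 lower interferon-stimulated genes without overlap. Without YFP+ libraries 21 and 48, chosen after seeing the data, these were 2 and 3, 4 and 2, and 13 and 8 (17.7% and 20.5% of all genes did not overlap there). DESeq2 called 1 pathway gene higher. Over all genes, 5 were called higher and 126 lower, against 424 and 628 without YFP+ library 21, 7 and 229 without YFP+ library 48, 18 and 172 without both libraries of number 21, 236 and 704 without YFP+ libraries 21 and 48, 2 and 113 with RLE factors, 0 and 10 without a filter, 0 and 9 with a stricter one, and 514 and 581 in DESeq2. Every other library or number left out gave 0.

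No source says whether equal numbers mark the same mouse, and the numbers were not treated as pairs. Deviations of same-numbered libraries correlated at 0.049, 0.068, 0.140 and 0.095 for numbers 21, 46, 48 and 53, and each YFP+ library except 21 correlated best with its own number. With the number as a block, 0 genes were called, 0 of them interferon-stimulated, also without YFP+ library 21, where the adjusted p of Gbp2 was 0.111 in edgeR. In the block fit, log2 fold changes turned to -0.037 for Irf9, -0.029 for Irgm2, -0.038 for Stat2 and -0.39 for Ifit3. In the block fit without YFP+ library 21 they turned to -0.10 for Ddx58, -0.31 for Irgm2, 0.28 for Zbp1, -0.56 for Stat2, -0.032 for Isg20 and 0.011 for Ifnar2.

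Of the genes that changed sign, single libraries left out gave ranges of -0.038 to 0.28 for Ddx58, -0.13 to 0.28 for Irf9, -0.26 to 0.27 for Irgm2, -0.072 to 0.058 for Ly6e, -0.30 to 0.31 for Zbp1, -0.62 to 0.64 for Stat2, -0.15 to 0.65 for Ifit3, -0.11 to 0.91 for Isg20 and -0.60 to 0.044 for Ifnar2. Without a filter, Irgm2 was at -0.044 and Ly6e at -0.073. Without both libraries of number 21, Ddx58 was at -0.037, Irgm2 at -0.27, Zbp1 at 0.32, Stat2 at -0.56, Isg20 at -0.035 and Ifnar2 at 0.027. Without number 46, Irf9 was at -0.096 and Ly6e at -0.028. Without number 48, Ly6e was at -0.025, Zbp1 at 0.035 and Ifit3 at -0.16. Without number 53, Ddx58 was at -0.013 and Irf9 at -0.12. Without YFP+ libraries 21 and 48, Irgm2 was at -0.065, Ly6e at -0.039, Zbp1 at 0.51, Stat2 at -0.69, Isg20 at -0.18 and Ifnar2 at 0.14. The cause was not tested.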
